A study of Mus musculus with 22 samples.

Results

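The enzymes that make pyrimidine nucleotides and the deoxynucleotides used for DNA were followed in the mouse colon during experimental colitis. The 10 genes were chosen by name, with earlier results of these data known. They were Cad, Dhodh, Umps and Ctps of de novo synthesis, Rrm1, Rrm2, Tyms and Dut of deoxynucleotide synthesis, and Tk1 and Upp1 of salvage. They are 10 of 18194 genes with a probe set annotated to a single gene symbol on the 22 Affymetrix mouse arrays. Colitis was induced with 2.5% dextran sodium sulfate (DSS), a polymer given in the drinking water that injures the colonic epithelium. VC- mice carried PPAR γ fl/fl alleles without Cre and express PPAR γ, a nuclear receptor, in intestinal epithelial cells (IEC). VC+ mice carried the same floxed alleles and Cre under the Villin promoter, which is active in the intestinal epithelium, so that the other cells of the colon keep PPAR γ. The study kept both genotypes on a mixed FVB/C57BL/6 and on a C57BL/6 background, and the labels give neither the background nor the age of the mice behind the arrays. VC- mice gave 3 arrays at day 0 (no DSS), 3 at day 2 and 4 at day 7. VC+ mice gave 3, 5 and 4 arrays at the same days.

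De novo synthesis builds UMP from small precursors: Cad catalyses the opening steps, Dhodh, a mitochondrial inner membrane enzyme, oxidizes dihydroorotate, Umps completes UMP, and Ctps converts UTP to CTP. Ribonucleotide reductase, made of the large subunit Rrm1 and the small subunit Rrm2, reduces ribonucleotides to deoxyribonucleotides, Dut hydrolyses dUTP to dUMP, and Tyms methylates dUMP to dTMP. The salvage route reuses nucleosides: Tk1, the cytosolic thymidine kinase, phosphorylates thymidine, and Upp1 cleaves uridine to uracil and ribose 1-phosphate. Rrm2, Tk1 and Tyms are known for high levels in S phase, and in the colon dividing epithelial cells lie in the lower crypt.

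Each value is a log2 signal after GC-RMA, the authors' background correction, normalization and summary over probes, and a difference of 1 is a doubling. The main value of a gene comes from its probe set with the largest interquartile range. Signals of different genes were not compared, since probes differ in brightness. A gene was called changed where the adjusted p was under 0.05 (limma, Benjamini-Hochberg over 9097 genes, the 50% that varied most by interquartile range), and all 10 enzymes were among them. Whether the arrays of a group came from different mice is not stated in the labels, and the p-values cover only the variation from array to array.

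Some arrays stood apart. Pparg was lower on the VC+ arrays than on the VC- arrays at day 0, at 8.62, 8.50 and 8.83 against 9.63, 9.58 and 9.61, and at day 2, when VC+ arrays ran from 6.87 to 9.54 and VC- arrays from 9.87 to 10.96. At day 7 the ranges overlapped, from 6.26 to 10.35 on VC+ arrays and from 7.39 to 9.82 on VC- arrays, so at that day the genotype rests on the labels. It was not known whether the probes lie in the deleted part of Pparg. Prss2, a pancreatic trypsinogen, was above 8 on VC- day 0 replicate 3, VC- day 7 replicate 2 and VC+ day 7 replicate 4. The mean of 10 epithelial markers, relative to the mean of all arrays, was -3.16 on VC- day 7 replicate 2 and between -0.12 and 0.49 on the others. Hoxb13, a marker of the distal colon, ranged from 2.86 to 12.42 within and between groups. In VC- mice it read 7.29, 9.13 and 9.67 at day 0 and 3.08, 2.95 and 2.88 at day 2. At day 7 the VC- arrays read 3.81, 2.86, 3.03 and 9.62. VC+ arrays ran from 2.88 to 12.42 at day 0, from 3.07 to 12.42 at day 2 and from 3.07 to 6.88 at day 7. Between days 0 and 2 of VC- mice, day and place along the colon cannot be told apart. At day 7 the VC- arrays at 3.81, 2.86 and 3.03 also lay below every VC- day 0 array. Between days 0 and 7 of VC- mice, day and place can thus be told apart only in part. In whole tissue, fewer cells of a type and less RNA per cell cannot be told apart.

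The short stretches just upstream of 5 annotated starts are shown for 5 enzymes with unlike patterns over the arrays, chosen after their values were seen: Rrm1, Rrm2 and Tk1, which followed replication genes from array to array, Ctps, which rose at day 7 in both genotypes, and Upp1, which followed neither. Each is 100 bases ending at the base before the start, from RefSeq on GRCm38.p6, read 5′ to 3′ on the gene's strand. Ctps and Upp1 have further annotated starts, and only the most upstream is shown. No letters matched in the 100 bases before the Ctps start at 120569459 or before the Upp1 starts at 9118103 and 9118507. Capitals mark exact matches on either strand to the letters of E2F (TTTCGCGC, TTTGGCGC or TTCCCGCC), to those of AP-1 (TGAGTCA), to the letters CCAAT, to those of the GC box (GGGCGG), to those of the E-box (CACGTG) and to those of the CRE (TGACGTCA).
Rrm1, chr7:102441595-102441694, plus strand: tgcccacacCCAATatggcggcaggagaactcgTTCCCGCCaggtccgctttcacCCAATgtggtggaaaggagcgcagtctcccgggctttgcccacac
Rrm2, chr12:24708154-24708253, plus strand: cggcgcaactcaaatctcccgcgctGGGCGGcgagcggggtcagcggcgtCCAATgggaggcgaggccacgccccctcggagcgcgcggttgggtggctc
Tk1, chr11:117826015-117826114, minus strand: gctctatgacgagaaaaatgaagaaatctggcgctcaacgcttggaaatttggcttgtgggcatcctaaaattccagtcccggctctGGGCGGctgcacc
Ctps, chr4:120570277-120570376, minus strand: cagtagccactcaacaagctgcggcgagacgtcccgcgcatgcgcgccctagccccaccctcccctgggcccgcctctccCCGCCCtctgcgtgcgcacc
Upp1, chr11:9117908-9118007, plus strand: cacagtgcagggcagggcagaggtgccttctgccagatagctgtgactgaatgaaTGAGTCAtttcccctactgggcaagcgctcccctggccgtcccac
In the 250 bases upstream, 9 of the 10 enzymes (Dhodh had no entry) and 27025 genes in all were searched. The E2F letters were found in Rrm1 alone of the 9, from -67 to -60, and in 2.849% of genes. The AP-1 letters were found in Upp1 alone, from -45 to -39 of the start shown, and in 5.162% of genes. CCAAT lay upstream of Rrm1 and Rrm2 and of 37.495% of genes, and the GC box upstream of 8 of the 9, all but Rrm1, and of 35.356% of genes. The E-box letters were found in Tyms (6.86% of genes) and the CRE letters in none of the 9 (1.769% of genes). No matches overlapped. These matches are descriptions of the letters and not sites of binding.

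At day 7 of DSS, 6 of the 10 enzymes changed in VC- mice: Dhodh, Umps, Dut, Rrm1 and Tk1 fell and Ctps rose. Over all genes tested 5.06% fell and 5.53% rose in this comparison. Without regard to the test, 7 enzymes (those 5, Rrm2 and Tyms) were lower on every day 7 array than on every day 0 array, as were 12.3% of all genes. Of these, Tyms was read near the lowest signals of the arrays. In the other direction 1 (Ctps) was higher on every day 7 array, as were 8.62%. In VC+ mice none was lower in this way (8.61% of all genes) and Ctps was higher (9.61%). The median log2 fold change was -1.32 over the 10 enzymes and -0.09 over all genes tested. In VC+ mice only Ctps rose and none fell, where 1.32% of all genes rose and 0.429% fell, and the median over the 10 was 0.12 against -0.02. The 5 enzymes that fell are among pyrimidine genes that the study singled out on these same samples. Neither their number nor their direction is therefore independent evidence.

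**Figure D1:**
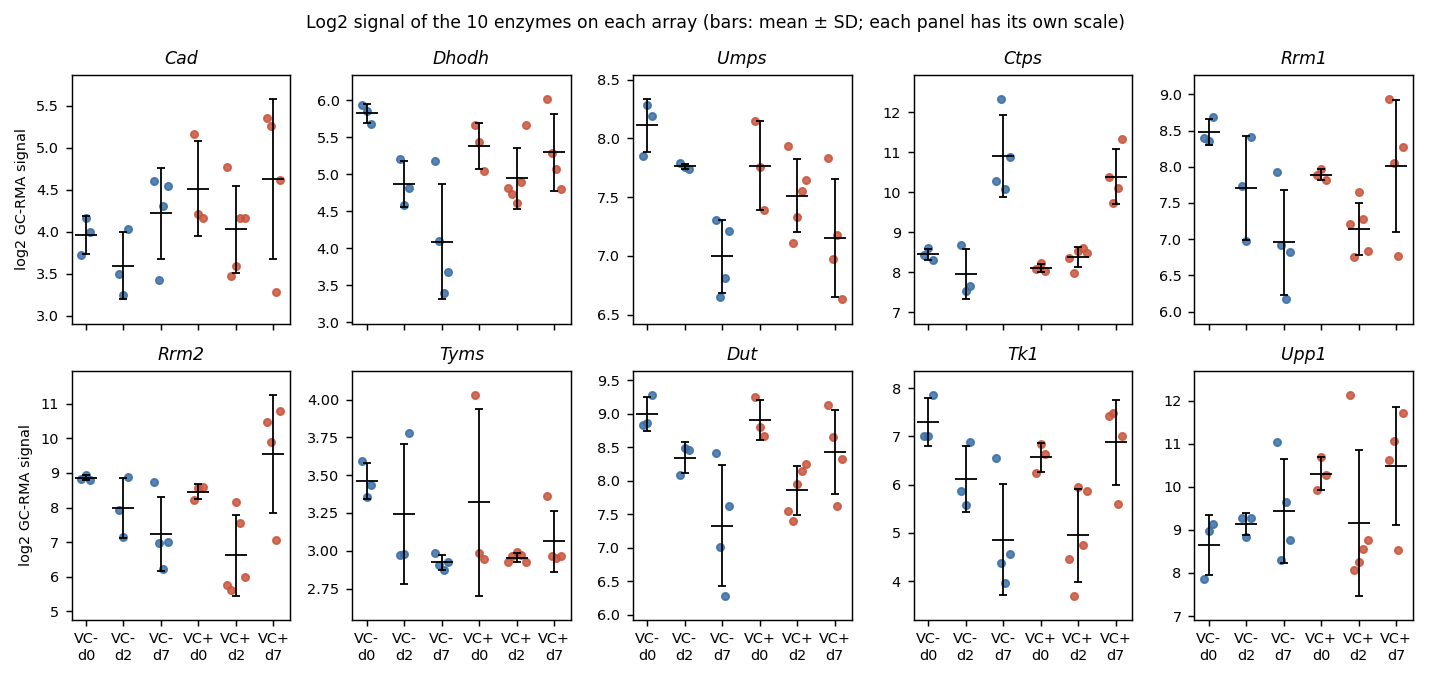
Log2 GC-RMA signal (vertical axis) of each of the 10 enzymes on each of the 22 arrays, by genotype and day (horizontal axis); points are arrays, blue VC- and red VC+, and bars are the mean ± SD of 3 to 5 arrays. Ctps sat higher at day 7 than on every day 0 array in both genotypes, and in VC- mice Dhodh, Umps, Dut, Rrm1, Rrm2, Tyms and Tk1 sat lower on every day 7 array than on every day 0 array.

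Dhodh, the mitochondrial step of de novo synthesis, read 5.93, 5.86 and 5.68 at day 0 in VC- mice, 5.21, 4.59 and 4.81 at day 2 and 5.17, 4.10, 3.40 and 3.68 at day 7 (replicates in order). All VC- arrays at day 2 and at day 7 were below all at day 0. The VC+ arrays read 5.66, 5.43 and 5.04 at day 0, 4.82, 4.73, 4.61, 4.89 and 5.66 at day 2 and 6.02, 5.28, 5.07 and 4.81 at day 7, and the 3 days overlapped. In VC- mice Dhodh fell by 1.74 ± 0.36 (SE) on the log2 scale at day 7, a 3.33-fold lower signal (limma, adjusted p = 0.0098, n = 4 and 3). In VC+ mice the day 7 difference was -0.08 ± 0.36 (limma, adjusted p = 0.961, n = 4 and 3).

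Umps, the bifunctional enzyme that completes UMP, read 7.85, 8.29 and 8.19 at day 0, 7.79, 7.75 and 7.74 at day 2 and 7.31, 6.65, 6.81 and 7.21 at day 7 in VC- mice, so the 3 days followed each other downwards without overlap. In VC+ mice the arrays read 8.15, 7.76 and 7.39, then 7.93, 7.11, 7.33, 7.55 and 7.64, then 7.83, 6.97, 7.18 and 6.63, and they overlapped. The VC- fall was 1.12 ± 0.27, 2.17-fold (limma, adjusted p = 0.0185), and the VC+ difference was -0.62 ± 0.27 (limma, adjusted p = 0.304, unadjusted p = 0.0324 in the fit across all genes). Over both genotypes, averaged with equal weight, Umps fell by 0.87 ± 0.19 from day 0 to day 7 (limma, adjusted p = 0.0061) and by 0.56 ± 0.18 from day 2 to day 7 (limma, adjusted p = 0.0397). On the median of its probe sets neither passed (-0.35 and -0.10, limma, adjusted p = 0.0862 and 0.602). The call from day 2 to day 7 held in 5 of 12 other settings. The last call was lost when any of 12 arrays was left out in turn: any VC- day 2 array, VC- day 7 replicate 2 or 3, VC+ day 0 replicate 2, VC+ day 2 replicate 1, 4 or 5, or VC+ day 7 replicate 2, 3 or 4 (log2 fold changes of -0.68 to -0.48 over all 22 omissions, adjusted p up to 0.0931).

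Cad, which opens the pathway, did not pass the test in any of the 12 comparisons with all arrays and equal weights. Its main probe set ran from 3.25 to 5.36, and the 3 VC- days overlapped. The day 7 differences were 0.26 ± 0.44 in VC- mice and 0.12 ± 0.44 in VC+ mice (95% intervals from -0.66 to 1.18 and from -0.80 to 1.04).

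Ctps, CTP synthase, was the only one of the 10 that rose. It read 8.43, 8.59 and 8.31 at day 0, 8.67, 7.52 and 7.65 at day 2 and 10.28, 12.34, 10.09 and 10.89 at day 7 in VC- mice, and 8.08, 8.22 and 8.03, 8.36, 7.97, 8.52, 8.59 and 8.48 and 10.38, 9.73, 10.10 and 11.33 in VC+ mice. All 8 day 7 arrays, from 9.73 upwards, were above all 14 earlier ones, which reached 8.67. The rise was 2.46 ± 0.44 in VC- mice, 5.49-fold (limma, adjusted p = 0.0036), and 2.27 ± 0.44 in VC+ mice, 4.83-fold (limma, adjusted p = 0.0097). At day 2 the differences were -0.50 ± 0.47 and 0.27 ± 0.42, neither past the test. The highest value, 12.34, came from VC- day 7 replicate 2, the array with low epithelial markers and with Prss2 signal (14.74). In VC+ mice the highest, 11.33, came from replicate 4, which also had Prss2 signal (11.20). When the 2 groups were fitted alone the adjusted p was 0.168 in VC- mice and 0.0581 in VC+ mice (limma). In VC+ mice it was 0.0593 without VC+ day 0 replicate 3.

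Some neutrophil and macrophage markers were higher at day 7, as Ctps was. The mean of 5 neutrophil markers, relative to all arrays, was between -1.41 and -0.60 on the 14 arrays of days 0 and 2, and between 0.87 and 3.98 on the 8 arrays of day 7. Both tested neutrophil markers, S100a8 and S100a9, rose in both genotypes. S100a8, a calcium-binding protein abundant in neutrophils, lay between 2.82 and 3.11 at day 0 and between 8.13 and 15.23 at day 7. The other 3 did not pass the variance filter: Mpo was at most 2.16 on all 22 arrays, Cxcr2 between 2.65 and 2.80 on all but VC- day 7 replicate 2 (4.11) and VC+ day 7 replicate 4 (3.87), and Csf3r between 4.10 and 4.94 on all but VC+ day 7 replicate 4 (6.06), so S100a8 and S100a9 carry the list's mean. The macrophage and monocyte list rose in 6 of 9 tested genes in VC- mice (5.53% of all genes) and in 3 of 9 in VC+ mice (1.32%). All 9 had positive values in each genotype. The part of these cells in the Ctps signal was not tested.

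Rrm1, the large reductase subunit, read 8.39, 8.35 and 8.68 at day 0, 7.73, 6.98 and 8.41 at day 2 and 7.92, 6.91, 6.17 and 6.82 at day 7 in VC- mice. In VC+ mice the values were 7.89, 7.96 and 7.82, 7.20, 6.75, 7.65, 7.27 and 6.84 and 8.94, 8.05, 6.76 and 8.27. The VC- arrays at day 7 all lay below day 0, while in VC+ mice day 2 lay below day 0 on every array and day 7 spread on both sides of it. Rrm1 fell by 1.52 ± 0.44 at day 7 in VC- mice, 2.86-fold (limma, adjusted p = 0.0374), and was 0.12 ± 0.44 in VC+ mice (limma, adjusted p = 0.953). It was the least stable of the 6 calls in VC- mice: it was lost in 7 of 12 other settings and when any VC- day 0 array or VC- day 7 replicate 2, 3 or 4 was left out (adjusted p up to 0.142 without VC- day 0 replicate 3).

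Rrm2, the small subunit that limits the reductase in the cell cycle, had the widest range from its lowest to its highest array. In VC- mice it read 8.83, 8.95 and 8.80 at day 0, 7.93, 7.14 and 8.89 at day 2 and 8.75, 6.97, 6.23 and 7.01 at day 7. In VC+ mice it read 8.21, 8.57 and 8.59 at day 0, 5.75, 5.63, 8.17, 7.54 and 5.99 at day 2 and 10.48, 9.89, 7.07 and 10.78 at day 7. All 4 VC- arrays at day 7 were below day 0, and 3 of 4 VC+ arrays at day 7 were above it. The day 7 differences were -1.63 ± 0.78 in VC- mice (limma, adjusted p = 0.156) and 1.10 ± 0.78 in VC+ mice (limma, adjusted p = 0.592), neither past the test. At day 2 in VC+ mice the difference was -1.84 ± 0.75 (limma, unadjusted p = 0.0235, adjusted p = 0.666), with all 5 arrays below day 0.

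Dut, the dUTPase, read 8.83, 8.87 and 9.29 at day 0, 8.08, 8.50 and 8.46 at day 2 and 8.42, 7.01, 6.29 and 7.63 at day 7 in VC- mice. In VC+ mice it read 9.25, 8.81 and 8.68, 7.54, 7.41, 7.95, 8.15 and 8.25 and 9.13, 8.65, 7.62 and 8.32. In both genotypes every day 2 array was below day 0, and at day 7 this held in VC- mice but not in VC+ mice. The fall at day 7 in VC- mice was 1.66 ± 0.40, 3.16-fold (limma, adjusted p = 0.0185), and the difference in VC+ mice was -0.48 ± 0.40 (limma, adjusted p = 0.668). Over both genotypes it was -1.07 ± 0.28 (limma, adjusted p = 0.0178).

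Tyms, thymidylate synthase, gave 2 unlike readings. Its 4 probe sets with a single gene symbol stayed between 2.35 and 4.22, the range in which many of the values on the arrays lie (41.7% of all values were under 3), and the main one differed by -0.54 ± 0.24 at day 7 in VC- mice (limma, adjusted p = 0.127). A further probe set that also matches the pseudogene Tyms-ps ran from 6.88 to 8.79. On it the VC- arrays read 8.03, 8.75 and 8.79 at day 0 and 8.30, 6.97, 6.91 and 6.88 at day 7, a difference of -1.25 ± 0.38 (limma, adjusted p = 0.0412), and VC+ arrays 8.20, 7.77 and 7.84 and 8.62, 8.44, 7.31 and 8.20, a difference of 0.20 ± 0.38 (limma, adjusted p = 0.883). This probe set was added after its values were seen, and signals of Tyms and Tyms-ps cannot be told apart on it.

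Tk1, the thymidine kinase of the salvage route, had the largest fall. In VC- mice it read 7.01, 7.02 and 7.86 at day 0, 5.88, 5.59 and 6.89 at day 2 and 6.55, 4.38, 3.95 and 4.56 at day 7, so replicate 1 at day 7 lay close to day 0 and the other 3 lay between 3.95 and 4.56. In VC+ mice it read 6.24, 6.84 and 6.63, 4.45, 3.70, 5.96, 4.76 and 5.87 and 7.42, 7.49, 5.59 and 7.01, so day 2 lay below day 0 on all 5 arrays and 3 of 4 day 7 arrays lay above it. The fall at day 7 in VC- mice was 2.44 ± 0.61, 5.41-fold (limma, adjusted p = 0.0240), and the VC+ difference was 0.31 ± 0.61 (limma, adjusted p = 0.893). At day 2 the difference was -1.62 ± 0.59 in VC+ mice (limma, unadjusted p = 0.0124, adjusted p = 0.584) and -1.18 ± 0.66 in VC- mice (limma, unadjusted p = 0.0884).

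Upp1, the uridine phosphorylase, behaved unlike Tk1 and did not pass the test in any comparison. It read 7.86, 8.96 and 9.14 at day 0 and 11.04, 8.30, 9.64 and 8.76 at day 7 in VC- mice, and 9.94, 10.70 and 10.27 and 10.62, 11.06, 8.52 and 11.71 in VC+ mice. At day 0 all VC+ arrays were above all VC- arrays, a difference of 1.65 ± 0.91 (limma, unadjusted p = 0.0860, adjusted p = 0.795). At day 2 the VC+ arrays lay between 8.08 and 8.76 except replicate 1 at 12.13, and the VC- arrays between 8.84 and 9.28.

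**Figure D2:**
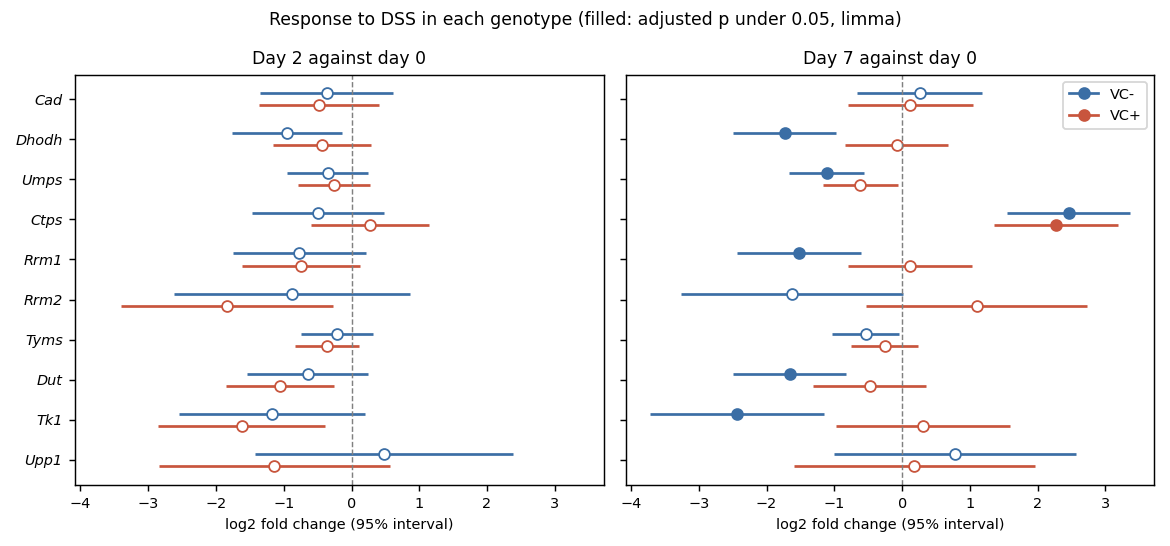
Log2 fold change against day 0 (horizontal axis, with its 95% interval) of each enzyme at day 2 (left) and day 7 (right) in VC- mice (blue) and VC+ mice (red); filled points passed the adjusted p of 0.05. At day 2 no point is filled, and at day 7 Ctps is filled in both genotypes and Dhodh, Umps, Rrm1, Dut and Tk1 in VC- mice.

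The number of calls in VC- mice at day 7 depended on the setting, for the enzymes and for all genes (10.6% called in both directions with all arrays). Of the 6 calls, 0 remained when the 2 groups were fitted alone (0.033% of all genes called) and 2 without the 3 arrays with Prss2 signal (Dhodh and Ctps; 1.95% of all genes). Leaving out VC- day 0 replicate 2 or VC- day 0 replicate 3 also left 2 calls (2.64% and 1.4% of all genes), and VC- day 7 replicate 2 or VC- day 7 replicate 3 left 4 (4.22% and 4.76%). Without VC- day 7 replicate 2, the array with low epithelial markers, the differences of Dhodh, Umps, Dut and Ctps still passed. With Hoxb13 as a covariate 3 calls remained (Dhodh, Dut and Ctps; 5.77% of all genes). In that fit Tk1, Umps and Rrm1 stood at -2.30, -0.92 and -1.43 (limma, adjusted p = 0.0516, 0.0506 and 0.0780). Directions were the same in all of these fits.

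At day 2 none of the 10 enzymes passed the test in either genotype or in their average. Lower on every day 2 array than on every day 0 array were 4 enzymes in VC- mice (Dhodh, Umps, Dut and Tk1; 6.61% of all genes) and 4 in VC+ mice (Rrm1, Rrm2, Dut and Tk1; 6.27%), and none was higher in this way in either (7.83% and 4.17%). In VC- mice 0.011% of all genes passed, and 1 enzyme (Dhodh, -0.95 ± 0.39) had an unadjusted p under 0.05, as had 4.58% of all genes. In VC+ mice 0.055% of all genes passed, and 3 enzymes (Tk1, Dut and Rrm2) had an unadjusted p under 0.05, as had 6.57% of all genes. Over both genotypes all 10 values were negative, 5 of them (Tk1, Dhodh, Dut, Rrm1 and Rrm2, from -1.40 to -0.69) with an unadjusted p under 0.05, beside 0.022% of all genes past the test and 5.09% under the unadjusted limit. The median over the 10 was -0.56 against -0.01 over all genes. When arrays were weighted by their agreement with their group, Tk1, Dut and Rrm2 passed in VC+ mice at day 2 (log2 fold changes of -1.38, -0.83 and -1.72), in a fit that called 14.1% of all genes. Ascl2, Axin2 and Ephb3, crypt base genes, were 3 of the 5 genes called in VC+ mice at day 2, and fell by 2.60, 1.86 and 1.38 on the log2 scale (limma, adjusted p = 0.0146, 0.0132 and 0.0411).

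From day 0 to day 7 over both genotypes, Ctps rose (2.36 ± 0.31; limma, adjusted p = 7.44e-05) and Dut, Dhodh and Umps fell, where 7.55% of all genes rose and 6.66% fell. The Dhodh and Dut calls were lost without the 3 arrays with Prss2 signal (log2 fold changes of -0.86 and -0.93, against -0.91 and -1.07 with all arrays; limma, adjusted p = 0.0896 and 0.103). Dhodh was also lost without any of VC- day 0 replicates 1 or 2, VC+ day 0 replicates 1 or 2 and VC+ day 7 replicate 4 (adjusted p of 0.0512 to 0.0633), and Dut without VC- day 0 replicate 3 (adjusted p = 0.0505). From day 2 to day 7 Ctps rose by 2.48 ± 0.29 (limma, adjusted p = 3.40e-05) and Umps fell, where 8.24% of all genes rose and 6.53% fell. Rrm2 and Cad differed by 1.09 ± 0.52 and 0.61 ± 0.29 over the same interval, short of the threshold (limma, adjusted p = 0.149 and 0.151). Both passed without VC+ day 7 replicate 3 (1.51 and 0.84; limma, adjusted p = 0.0247 and 0.0290), and Cad also with array weights (0.89; limma, adjusted p = 0.0269).

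Set side by side, enzymes of the same route gave unlike values, as a description with no test. Relative to day 0 of the same genotype, the mean of the 4 deoxynucleotide enzymes was -0.63 ± 0.51 (SD over 3 arrays) at day 2 and -1.34 ± 0.68 (4 arrays) at day 7 in VC- mice, and -1.0 ± 0.43 (5 arrays) and 0.12 ± 0.81 (4 arrays) in VC+ mice. The mean of the 4 de novo enzymes was -0.54 ± 0.26 and -0.03 ± 0.29 in VC- mice, and -0.22 ± 0.29 and 0.42 ± 0.41 in VC+ mice, with Ctps opposite in sign to Dhodh and Umps at day 7 in VC- mice. Without Ctps, the mean of Cad, Dhodh and Umps was -0.56 ± 0.18 and -0.86 ± 0.43 in VC- mice, and -0.39 ± 0.35 and -0.19 ± 0.55 in VC+ mice. These means take Tyms from its main probe set, between 2.87 and 4.03 and so near the lowest signals. They take Cad from its main probe set, dimmer (mean 4.16) than its second detected one (6.18). Tk1 of the salvage route went with the deoxynucleotide enzymes, at -2.44 ± 1.15 in VC- mice and 0.31 ± 0.88 in VC+ mice at day 7. Upp1 stood at 0.78 ± 1.2 and 0.18 ± 1.38, with signs differing from array to array. Among the day 7 arrays of VC- mice, replicate 1 was the highest for the 4 deoxynucleotide enzymes (-0.43, with a lowest of -2.06), and among those of VC+ mice replicate 3 was the lowest (-1.04, with a highest of 0.83).

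**Figure D3:**
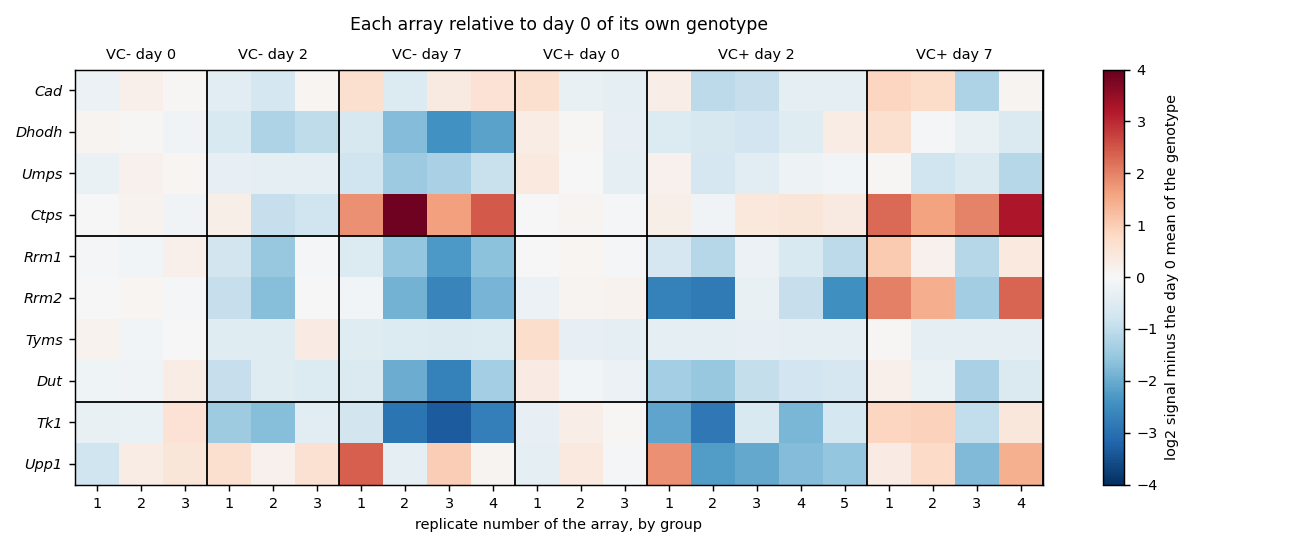
Log2 signal of each enzyme (rows, grouped into de novo, deoxynucleotide and salvage) on each of 22 arrays (columns, by group) minus the day 0 mean of the same genotype; red is higher and blue lower. At day 7 the Ctps row is red on all 8 arrays. The Rrm1, Rrm2, Dut and Tk1 rows are blue on every VC- array, palest on replicate 1, and on VC+ replicate 3. Dut is also blue on VC+ replicates 2 and 4.

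VC+ arrays were set against VC- arrays at each day to ask whether the loss of PPAR γ in IEC went with the level of these enzymes. None of the 10 passed at day 0, where 0.011% of all genes did and no enzyme had an unadjusted p under 0.05 (6.6% of all genes). None passed at day 2, where 0.044% of all genes did and again no enzyme had an unadjusted p under 0.05 (12.3% of all genes). At day 7 none passed, as for all genes (0.0%). There, 5 of the 10 enzymes had an unadjusted p under 0.05, beside 14.2% of all genes, all higher on the arrays labelled VC+. Rrm2 was higher by 2.32 ± 0.72, Tk1 by 2.02 ± 0.57, Dhodh by 1.21 ± 0.33, Dut by 1.10 ± 0.37 and Rrm1 by 1.05 ± 0.40 (limma, adjusted p of 0.303 to 0.307). The genotypes overlapped for each of them at day 7. The median over the 10 was 1.05 against 0.08 over all genes.

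The difference between the 2 responses was tested as well. At day 2 no enzyme passed and none had an unadjusted p under 0.05, beside 0.022% and 6.46% of all genes. At day 7 no enzyme passed (0.0% of all genes), and the same 5 had an unadjusted p under 0.05, beside 8.48% of all genes. The day 7 response was higher in VC+ than in VC- mice by 2.74 ± 0.87 for Tk1, 2.73 ± 1.10 for Rrm2, 1.65 ± 0.51 for Dhodh, 1.63 ± 0.62 for Rrm1 and 1.18 ± 0.56 for Dut (limma, adjusted p of 0.58 for each). For Ctps the difference was -0.18 ± 0.62, with a 95% interval from -1.47 to 1.11. So a fall that passed in VC- mice and not in VC+ mice was not shown to differ between them.

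These genotype results depended on single arrays and on array weights. Without VC- day 7 replicate 1 all 5 enzymes passed the genotype test at day 7 (log2 differences of 1.37 to 2.82, adjusted p from 0.0056 to 0.0339), in a fit that called 13.3% of all genes. With array weights the 5 passed both the genotype test (17.5% of all genes) and the test of the difference in response (8.71% of all genes, values of 1.46 for Dut to 3.22 for Rrm2). The weights were lowest for VC- day 7 replicate 2 (0.0916) and VC- day 7 replicate 1 (0.344). Without VC+ day 7 replicate 3, Rrm2 alone passed (3.15).

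Other genes of the pathway came from lists written with earlier results of these data known. Over all genes tested, 5.06% fell and 5.53% rose at day 7 in VC- mice, and 0.429% fell and 1.32% rose in VC+ mice. At day 7 no gene of any list passed between genotypes or in the difference of responses (0.0% of all genes). In the thymidylate branch 3 of 8 tested genes fell in VC- mice at day 7: Dut, Dtymk, which phosphorylates dTMP (-1.44 ± 0.44), and Shmt1, a serine hydroxymethyltransferase that feeds the folate cycle (-1.40 ± 0.42). Among 7 tested salvage and cleavage genes Tk1 and Dck, deoxycytidine kinase (-1.14 ± 0.33), fell. Of 8 genes of breakdown and dNTP removal Dctpp1, a dCTP pyrophosphatase, fell (-1.06 ± 0.33). None of these passed in VC+ mice, where Dtymk stood at -0.06 ± 0.44 and Dck at 0.20 ± 0.33. Rrm2b, the reductase subunit of resting cells, did not pass in either genotype (0.07 ± 0.22 and -0.26 ± 0.22). From day 2 to day 7 over both genotypes, other genes of these lists rose. They were Shmt2 (0.77 ± 0.25), Mthfd2 (0.93 ± 0.24) and Uck2 (0.82 ± 0.27; limma, adjusted p = 0.0482, 0.0179 and 0.0442), where 8.24% of all genes rose.

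Purine synthesis was read beside it, against the same shares of all genes tested. Of 9 tested de novo purine genes 2 fell in VC- mice, Gart (-1.06 ± 0.29) and Prps2 (-1.10 ± 0.33), and 1 rose in VC+ mice, Prps1 (0.96 ± 0.20; limma, adjusted p = 0.0182). Both Prps genes make phosphoribosyl pyrophosphate, which purine and pyrimidine synthesis share. None of 7 purine salvage genes and neither of 2 nucleoside transporters passed in either genotype at day 7. In the average of both genotypes at day 7, 2 of the 7 salvage genes rose, Gda, guanine deaminase (1.51 ± 0.41; limma, adjusted p = 0.0212), and Aprt, adenine phosphoribosyltransferase (0.51 ± 0.15; limma, adjusted p = 0.0298), and Prps1 rose by 0.67 ± 0.14 (limma, adjusted p = 0.00527). From day 2 to day 7 Gda (1.44 ± 0.39) and Xdh, xanthine dehydrogenase (1.73 ± 0.49), rose. Over all genes tested 7.55% rose in the day 7 average and 8.24% from day 2 to day 7.

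DNA replication, which consumes deoxynucleotides, was read from a list of its genes. Over all genes tested, 5.06% fell at day 7 in VC- mice and 0.429% in VC+ mice. Of 19 tested replication and S phase genes 10 fell in VC- mice at day 7 and none in VC+ mice, with medians of -1.44 and 0.33. They included Prim1, a DNA primase subunit (-2.37 ± 0.56), Rfc4 and Rfc3, clamp loader subunits (-2.16 ± 0.50 and -1.25 ± 0.28), and Ccne2, a cyclin of S phase entry (-2.74 ± 0.74). Of 10 mitosis genes, Ccnb2 (-2.39 ± 0.72) and Bub1 (-2.33 ± 0.73) fell in VC- mice and none in VC+ mice. Over both genotypes Mcm4 of the replication list rose from day 2 to day 7 (0.94 ± 0.23, limma, adjusted p = 0.0119), where 8.24% of all genes rose. The study singled out replication genes on these samples too. In the crypt base list Ascl2, Axin2 and Ephb3, 3 of 7 tested genes, fell in each genotype at day 7. The mean of the list, relative to all arrays, ran from 0.30 to 0.59 at day 0 and from -0.96 to 0.23 at day 7 in VC- mice. In VC+ mice it ran from 0.54 to 0.77 and from -0.55 to 0.55. Smoc2 of this list overlapped between these days in both genotypes and reached its highest value at day 7 (11.86 and 9.31). In VC- mice the replication list ran from -1.13 to 0.37 at day 7, with replicate 1 the highest. Without VC- day 7 replicate 2, which had low epithelial markers, the epithelial list of the other VC- day 7 arrays lay between 0.06 and 0.24, as on the day 0 arrays (0.07 to 0.23). Their part in the falls of the enzymes was not tested.

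**Figure D4:**
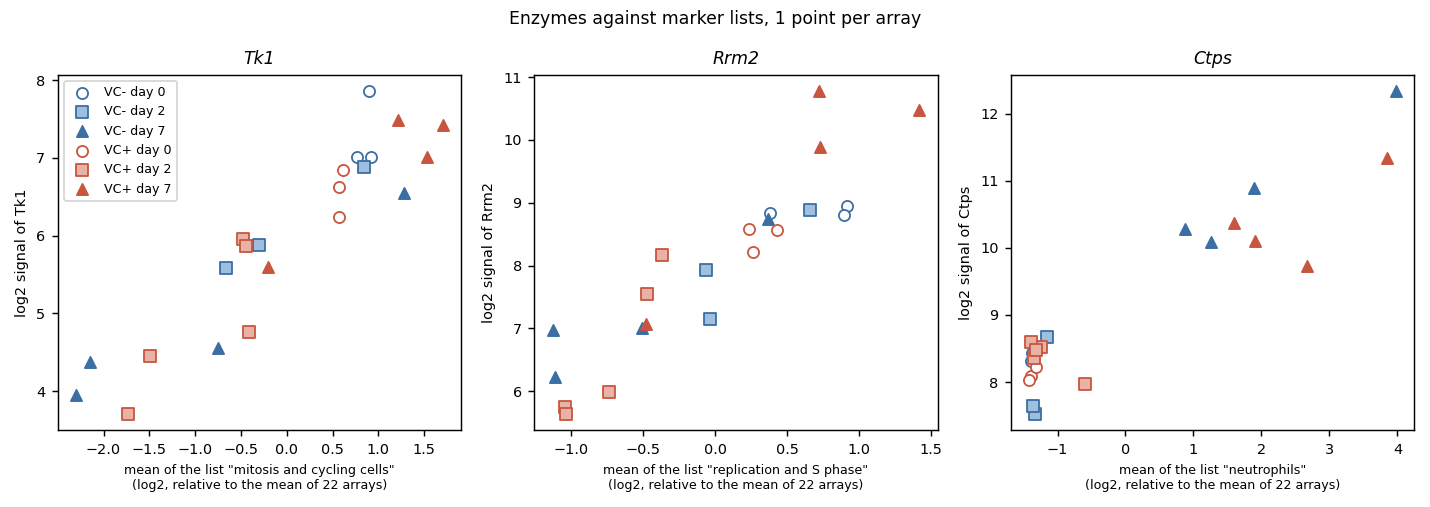
Log2 signal (vertical axes) of Tk1 against the mean of 10 mitosis genes, of Rrm2 against the mean of 21 replication genes and of Ctps against the mean of 5 neutrophil genes (horizontal axes, log2 relative to the mean of 22 arrays); each point is an array, circles day 0, squares day 2 and triangles day 7, blue VC- and red VC+. Tk1 and Rrm2 follow their lists across arrays of all groups, and Ctps separates the 8 day 7 arrays from the 14 earlier ones.

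Genes with the most similar pattern were sought among 18194 genes by Pearson correlation over the 22 arrays, as a description, since the arrays share groups and tissue makeup. The 5 nearest to Tk1 were Mad2l1 (r = 0.96), Cdca5 (0.95), Shcbp1 (0.95), Cdk1 (0.95) and E2f8 (0.94), genes known from the cell cycle. The 5 nearest to Upp1 were Kars (0.82), Psmb8 (0.81), Dtx3l (0.80), Tap1 (0.79) and Psma5 (0.76). The search for Ctps was added after its values were seen and gave Ptx3 (0.97), Cemip (0.97), Timp1 (0.96), Cxcl1 (0.96) and Mmp3 (0.96). Among the 10 enzymes Tk1 was nearest to Rrm1 (0.89), Rrm2 and Dut (0.86 each), and Ctps was negative with Umps (-0.69) and near 0 with Tk1 (-0.15).

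Where an enzyme had several detected probe sets they moved alike in direction at day 7 in VC- mice. Rrm1 had a second bright probe set with differences of -0.81 in VC- mice and 0.40 in VC+ mice. The 2 further probe sets of Rrm2 gave -1.42 and -1.28 in VC- mice and 1.71 and 1.09 in VC+ mice. The second detected probe set of Cad gave 0.21 and 0.67. For Umps the 3 dimmer probe sets, with means of 2.22 to 4.04, gave -0.04, -0.28 and -0.49 in VC- mice against -1.12 for the main one, and on the median of all 4 the fall did not pass (-0.39, adjusted p = 0.174).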

How the data were processed

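Total RNA of homogenized colonic tissue was hybridized by the authors to Affymetrix mouse expression arrays and read with the affy package. The deposited values are on the log2 scale: the authors corrected, normalized and summarized the probes with GC-RMA in R 2.10.1, and the arrays' medians lay between 3.41 and 3.55. The value table holds 45101 probe sets, of which 34958 carry a single symbol in the platform annotation; 932 with several symbols and 9211 with none were left out. Gene names are those of the annotation.

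Of the probe sets of a gene (18194 genes), the one that varied most by interquartile range over 22 arrays was used, and the 50% of genes that varied most (9097) entered limma 3.58.1 (R 4.3.3) with 6 group means from all arrays, empirical Bayes and Benjamini-Hochberg adjustment over all genes tested, threshold 0.05, in 12 comparisons. A difference is on the log2 scale with its standard error. The day 7 and day 2 comparisons share their day 0 arrays. Genes of the other lists were named by the smallest adjusted p in the averaged day 7 comparison, up to 4 a list, with calls of the day 2, genotype and response comparisons. S100a8, S100a9, the other neutrophil markers, the crypt base genes Ascl2, Axin2 and Ephb3, and Shmt2, Mthfd2, Uck2 and Mcm4 were named after their values were seen. The members, lists and alternatives were chosen with earlier results of these data known. The fit was tested on simulated data with 200 changed genes, with noise independent between genes and of equal spread on every array. Effects of arrays that stand apart were therefore not tested by it. The number of arrays limits the precision. Sequences come from RefSeq, build GRCm38.p6. Alternatives were other probe sets, filters, weights, priors, covariates and normalizations, a replicate block, the groups compared alone and each array left out in turn.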

Additional observations from a re-analysis of the deposited data

Results flagged for a closer look

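In groups of 4 or 5 arrays, 3 arrays lay far from the rest of their group for 1 enzyme, of 30 groups examined, where chance gives about 1.5. Dhodh read 5.66 on VC+ day 2 replicate 5 and from 4.61 to 4.89 on the other 4 arrays. Upp1 read 12.13 on VC+ day 2 replicate 1 and from 8.08 to 8.76 on the other 4. Tyms read 3.36 on VC+ day 7 replicate 1 and from 2.95 to 2.97 on the other 3, all of them near the lowest signals of the arrays.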

How the results depend on the processing

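Of 13 changes that passed, none changed direction in any of 12 other settings or when each of 22 arrays was left out. Of 79 values followed, 10 changed sign somewhere, none of them past the test and none larger than 0.60. The 79 are all values of the day 2 and day 7 comparisons within a genotype, of the genotypes at day 7 and of the difference of the day 7 responses. From the other comparisons only values with an unadjusted p under 0.1 (limma) entered, so sign changes of weaker ones were not counted. The causes were not tested. Fitting the groups compared alone gave 0 calls in VC- mice (0.033% of all genes called) and 0 in VC+ mice (0.506%) at day 7. It gave 1 in the day 2 average (Dut, 0.55% of all genes), 2 in the day 7 average (6.79%) and 1 from day 2 to day 7 (8.07%). Omitting the 3 arrays with Prss2 signal gave 2 calls in VC- mice at day 7 (1.95% of all genes), 2 in the average and 1 from day 2 to day 7. With Hoxb13 as a covariate these counts were 3 (5.77% of all genes), 2 and 1. Array weights gave 3 calls in VC+ mice at day 2 (14.1% of all genes), 5 between genotypes at day 7 (17.5%) and 5 in the difference of the day 7 responses (8.71%). From day 2 to day 7, 1 call was left with no variance filter and 1 with the median of all probe sets. With the replicate number of the labels as a block, 4 of 10 enzymes passed in VC- mice at day 7 (4.07% of all genes). In that fit Tk1 and Rrm1 had log2 fold changes of -2.42 and -1.54 (limma, adjusted p = 0.0520 and 0.0655). From day 2 to day 7 the block left 1 call. The labels do not say what a number shares, so the numbers were not taken as pairs. Deviations correlated over 0.1 in 18 of 48 same-numbered pairs and in 36 of 152 other pairs (means of 0.0843 and -0.0267). Of 22 arrays, 13 correlated best with their own number. The main fit does not model what same-numbered arrays may share. Leaving out each array in turn gave 2 to 6 calls in VC- mice at day 7 (from 1.4% to 28.6% of all genes) and 0 to 1 in VC+ mice. It gave 3 to 6 in the day 7 average, 1 to 3 from day 2 to day 7 and 0 to 5 between genotypes at day 7. Without VC- day 7 replicate 1, 6 passed in the day 7 average and 5 between genotypes at day 7. That fit called 25.5% and 13.3% of all genes in these comparisons. For the other counts of this section the share of all genes is not given.

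Sign changes were as follows. For VC+ mice at day 7, Dhodh became 0.0095 with the median of probe sets, 0.0052 with the replicate block, 0.20 with array weights and 0.0825 without the Prss2 arrays (-0.32 to 0.0825 over omitted arrays). Tyms became 0.047 with array weights and 0.20 on the shared probe set (-0.45 to 0.0972). Upp1 became -0.23 without the Prss2 arrays (-0.23 to 0.83), while Rrm1 ran from -0.20 to 0.53 and Cad from -0.12 to 0.57 over omitted arrays. Cad at day 2 in VC- mice became 0.19 with Hoxb13 as a covariate. Umps between genotypes at day 7 ran from -0.0697 to 0.33. For the difference of the day 7 responses Ctps became 0.0494 without the Prss2 arrays (-0.50 to 0.30), Cad 0.46 on its brightest probe set and 0.26 with array weights (-0.40 to 0.31), and Upp1 ran from -1.01 to 0.0543. Tyms was not tested on its brightest single-symbol probe set, which the variance filter removed.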
